A study of Mus musculus with 58 samples.

Results

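The genes described here are 6 of the 54532 genes in the RNA-seq count tables of this study: Lars2, Mir6236, Gm15564, Gm42418, Gm26917 and AY036118. They were chosen by name as a set that earlier results of these data had singled out, on 3 readouts: their share of counts in each RNA-seq library, the correlation of those shares, and their difference between the mouse lines and between del/+ and wt males. Those readouts are therefore given below as a description, with no test. Of the 6 genes, 4 had counts in the RNA-seq libraries, and Gm42418 and AY036118 were listed at 0 in all 32. Lars2 alone was also in the lysate RNA and ribosome footprint tables, which hold 18411 genes.

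The study sequenced RNA from mouse striatum, the input structure of the basal ganglia, of the 3g line and the 16p11.2 line, strain B6129S in the labels. The 3g del/+ mice carry 1 null copy each of Taok2, Sez6l2 and Mvp, made by genome editing in the embryo, and the 16p11.2 del/+ mice lack 1 copy of the mouse region that matches human 16p11.2, which holds the same 3 genes. The wt mice of each line were littermates, all groups were untreated adults, and the deletions are germline changes present in all tissues. Each line gave 4 RNA-seq libraries from each of del/+ females, wt females, del/+ males and wt males. Striatal lysates of male mice gave 1 lysate RNA and 1 footprint library per animal. They came from 3 del/+ and 3 wt mice of the 3g line and 3 del/+ and 4 wt mice of the 16p11.2 line. Their label numbers differ from those of the RNA-seq libraries, but the labels do not state whether any mouse gave both. RNA-seq libraries are named here by the number in their label, and animals of the lysates are numbered from 1 within line and genotype, in the order of their label numbers. The labels do not state that the RNA-seq samples are separate mice, so their p-values measure only the spread between these samples.

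Lars2 encodes the mitochondrial leucyl-tRNA synthetase, the nuclear-encoded enzyme that loads leucine onto its transfer RNA inside mitochondria. Gm42418 is named in RefSeq as Rn18s-rs5, a sequence related to 18S ribosomal RNA, and AY036118 is a long noncoding RNA gene beside it. Ribosomal RNA makes up most of the RNA of a cell and is removed before sequencing in depletion kits such as the one the study's methods name. Mir6236 is annotated as a microRNA gene and Gm15564 as a long noncoding RNA gene, and Gm26917 is a gene model with no RefSeq entry.

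RefSeq (GRCm38.p6) placed Lars2 on chr9:123366927-123462675 and Mir6236 on chr9:110281287-110281409, 13.1 Mb away. Gm15564 lay on chr16:35966751-35983329. Gm42418 lay on chr17:39846354-39848202 and AY036118 on chr17:39848112-39898385, so that the 2 genes listed at 0 shared 91 bases. The 4 genes with counts did not adjoin each other in the genome as far as they were placed, and none of the tables holds a sequence that would show them to be copies of a ribosomal RNA repeat. They are therefore called Lars2 and the genes grouped with it. How the authors' counting treated reads that match several places, overlapping genes and strand is not given in the sources used here, so the counts of these genes are uncertain in that respect.

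Sequences are shown for the members that RefSeq covers and whose counts moved together, to let their regulatory ends be compared. The mature Mir6236 product of 19 bases lies on chr9:110281353-110281371, and its seed, bases 2 to 8, is in capitals:
mmu-miR-6236: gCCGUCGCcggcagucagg
It was the only 1 of 1738 mature mouse microRNAs in the RefSeq table with this seed, its GC content was 78.9%, and it did not occur on either strand of 32851 promoter windows. The promoter windows hold 250 bases before and 50 after a gene's start, and capitals mark GC boxes (GGGCGG on either strand). The Lars2 window is chr9:123366677-123366976 on the plus strand, and the first of 3 Gm15564 windows is chr16:35983280-35983579 on the minus strand:
Lars2: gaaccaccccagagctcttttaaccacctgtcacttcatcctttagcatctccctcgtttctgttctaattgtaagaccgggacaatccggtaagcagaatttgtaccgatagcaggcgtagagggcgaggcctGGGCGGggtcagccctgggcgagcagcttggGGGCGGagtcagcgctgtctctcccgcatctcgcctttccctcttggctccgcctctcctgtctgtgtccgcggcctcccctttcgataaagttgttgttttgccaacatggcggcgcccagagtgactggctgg
Gm15564: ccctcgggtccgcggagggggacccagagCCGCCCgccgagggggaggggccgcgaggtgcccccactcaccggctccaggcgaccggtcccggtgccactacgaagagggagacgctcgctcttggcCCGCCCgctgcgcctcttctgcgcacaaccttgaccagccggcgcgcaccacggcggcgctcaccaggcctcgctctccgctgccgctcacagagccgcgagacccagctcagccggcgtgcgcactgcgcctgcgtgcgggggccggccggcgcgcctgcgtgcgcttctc
Both windows held 2 GC boxes, a motif found in 35.7% of all windows, and neither held a TATA box (TATAAA on either strand), found in 13.6%. The GC content was 58.3% for Lars2 and 76.7% for Gm15564, against a median of 52.7% over all windows. The longest run of bases the windows shared, on either strand, was 11.

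The RNA-seq libraries held 11711099 to 65529807 counts each, the lysate RNA libraries 15102576 to 19122488 and the footprint libraries 342052 to 678130. Values below are in CPM, a gene's share of all gene counts in a library scaled so that the genes of a library sum to 1000000, and shares are also given in percent. They compare libraries, and not the amounts of different genes, whose lengths differ. The 10 striatal projection neuron markers were detected in all libraries, with a summed level of 4687 to 8902 CPM in RNA-seq. The library labelled 3g wt male 17 and the library labelled 16p11.2 del/+ male 4 lay with the other line across the transcriptome. On a scale from 0 (mean of 3g wt females) to 1 (mean of 16p11.2 wt females), over 11379 genes that differ between these groups and that leave out the genes described here, 3g wt male 17 was at 0.899 and the other 15 libraries of its line between -0.0893 and 0.167. The library 16p11.2 del/+ male 4 was at 0.188 and the other 15 of its line between 0.842 and 1.21. Its level of Taok2, 1 of the deleted genes, was 93.4 CPM, within the 78.1 to 93.7 CPM of the other 7 16p11.2 del/+ libraries and below the 141 to 180 CPM of the 8 wt libraries of its line, the 168 to 204 CPM of the 8 3g del/+ libraries and the 184 to 192.5 CPM of the other 7 3g wt libraries. In 3g wt male 17 Taok2 was at 170 CPM, below those 7 and within the range of 16p11.2 wt and of 3g del/+ libraries. Of the 16p11.2 del/+ females, library 1 went against its sex label: Ddx3y, a Y-linked gene at 0 in each of the other 15 female libraries, was at 38.1 CPM there, and Xist, at no less than 294 CPM in those 15, was at 0.457 CPM. Differences and correlations that include these 3 libraries are also given without them.

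Lars2 took between 0.00673% and 0.0128% of the counts in 15 of the 16 libraries of the 3g line and between 0.0644% and 0.222% in 15 of the 16 libraries of the 16p11.2 line. In 3g females Lars2 stood at 99.4, 79.6, 83.1 and 77.9 CPM in del/+ libraries 28, 31, 36 and 37 and at 101, 76.5, 93.3 and 73.4 CPM in wt libraries 29, 30, 35 and 39. In 3g males it stood at 77.3, 86.7, 88.7 and 128 CPM in del/+ libraries 25, 27, 32 and 33 and at 1282, 108, 67.3 and 78.0 CPM in wt libraries 17, 24, 26 and 34. One library, wt male 17, thus lay far above every other library of its line, and the remaining del/+ and wt values overlapped. In 16p11.2 females Lars2 stood at 1675, 1956, 2035 and 1751 CPM in del/+ libraries 1 to 4 and at 1757, 644, 1194 and 1737 CPM in wt libraries 1 to 4. In 16p11.2 males it stood at 1492, 1606, 1720 and 60.3 CPM in del/+ libraries 1 to 4 and at 2222, 1715, 1755 and 1049 CPM in wt libraries 1 to 4. Here del/+ male 4 was the lowest of all 32 RNA-seq libraries, and wt female 2 and wt male 4 were the lowest of the other 15.

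**Figure D1:**
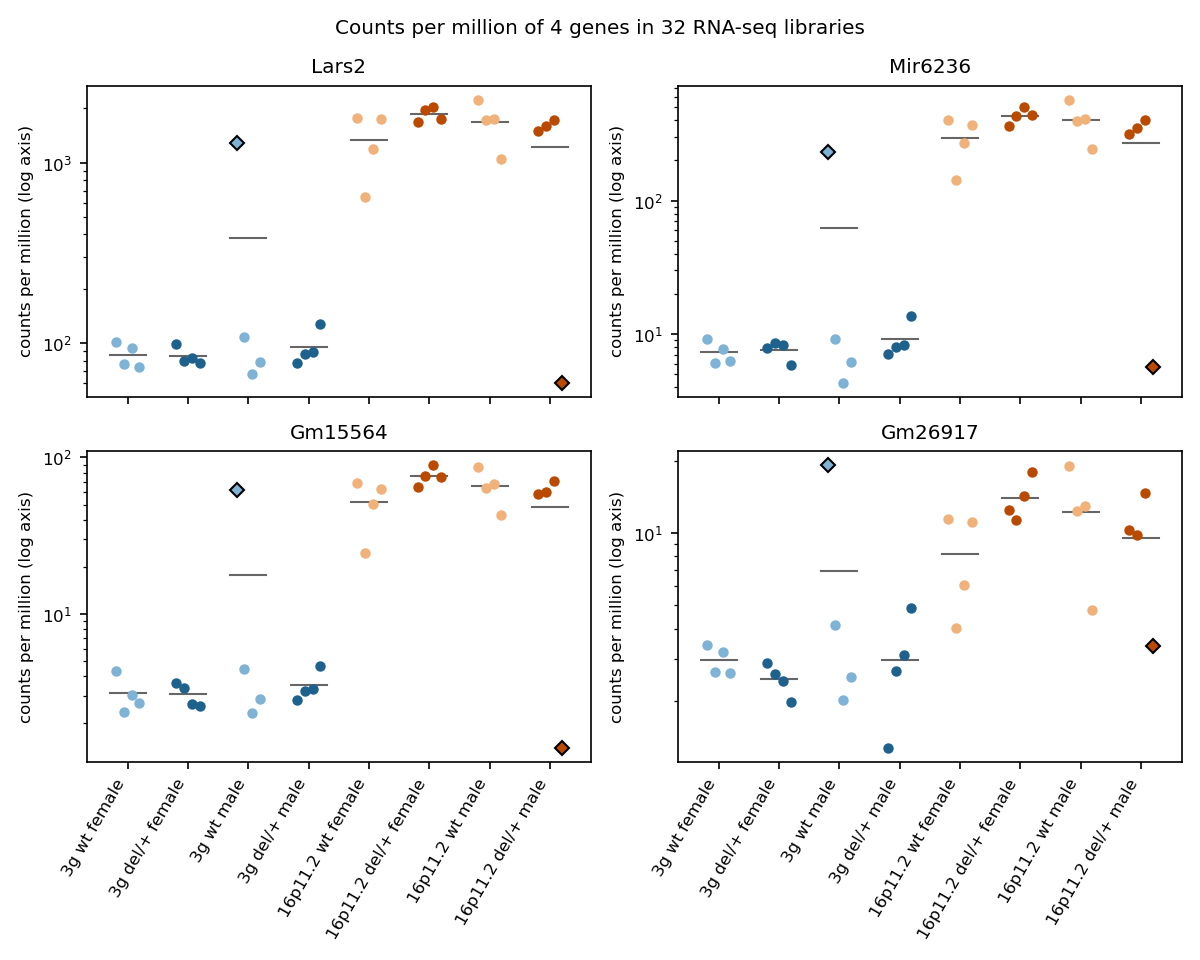
CPM (log axis) of Lars2, Mir6236, Gm15564 and Gm26917 in each of 32 RNA-seq libraries, by line, genotype and sex; points are libraries, short bars are group means, and diamonds are 3g wt male 17 and 16p11.2 del/+ male 4. Apart from the diamonds, the points of the 16p11.2 line lie above those of the 3g line for Lars2 (644 to 2222 against 67.3 to 128 CPM), Mir6236 and Gm15564, while for Gm26917 the lines overlap between 4.02 and 4.86 CPM.

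Mir6236 also stood lower in the 3g than in the 16p11.2 line, over a wider range than Lars2. In 3g females it stood at 7.89, 8.53, 8.34 and 5.84 CPM in del/+ and at 9.20, 6.03, 7.72 and 6.30 CPM in wt libraries, in the order given for Lars2. In 16p11.2 females it stood at 362, 427, 503 and 435 CPM in del/+ and at 399, 142, 269 and 371 CPM in wt libraries 1 to 4. The same wt library, number 2, was the lowest of the line among females. In males Mir6236 ranged from 7.09 to 13.7 CPM in 3g del/+ libraries and stood at 231, 9.23, 4.32 and 6.21 CPM in 3g wt libraries 17, 24, 26 and 34. In 16p11.2 males its share of the counts was 0.0318%, 0.0352%, 0.0404% and 0.000566% in del/+ libraries 1 to 4 and 0.0566%, 0.0392%, 0.0409% and 0.0242% in wt libraries 1 to 4. The pair of libraries that lay with the other line for Lars2 did so for Mir6236.

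Gm15564, the long noncoding RNA gene on chromosome 16, stood between 2.33 and 4.63 CPM in 15 libraries of the 3g line, with a median of 3.05. It stood between 24.6 and 89.1 CPM in 15 libraries of the 16p11.2 line, with a median of 65.1. It was at 61.5 CPM in 3g wt male 17 and at 1.39 CPM in 16p11.2 del/+ male 4. Gm26917 differed less between the lines. It stood between 1.28 and 4.86 CPM (median 2.65) in the 15 libraries of the 3g line and between 4.02 and 18.9 CPM (median 11.4) in the 15 of the 16p11.2 line. It was at 19.1 CPM in 3g wt male 17, the highest of all 32, and at 3.41 CPM in 16p11.2 del/+ male 4.

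Gm42418 and AY036118 had no count in any of the 32 libraries. A count of 0 allows up to 3 counts, which is 0.0458 to 0.256 CPM depending on the library, and this limit covers counting error only. Of the 6 members these 2 had the RefSeq positions that overlap each other.

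Between wt females of the lines, the 4 members with counts all stood higher in the 16p11.2 line. Lars2 averaged 86.1 ± 13.4 CPM (SD, n = 4) in 3g wt females and 1333 ± 528 CPM (n = 4) in 16p11.2 wt females, 16.9-fold higher after TMM normalization (log2 4.08, SE 0.29). The fold was 44.3 for Mir6236 (log2 5.47, SE 0.31), 18.4 for Gm15564 (log2 4.20, SE 0.31) and 3.05 for Gm26917 (log2 1.61, SE 0.28). By size of the log2 difference they ranked 11, 2, 9 and 634 among 19013 genes. This comparison chose the members, so neither a test nor a call of them is given. Of all 19013 genes, 59.9% were called between these groups, so a difference between the lines is common here. The labels give no sequencing batch, and line cannot be told apart from anything else that differed between the libraries of the lines.

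Markers of other cell types also differed between these sets. The summed level of 4 oligodendrocyte markers (Mbp, Mog, Mag and Mobp) was 2874 to 5049 CPM in 15 libraries of the 3g line and 5601 to 9747 CPM in 15 of the 16p11.2 line, 7597 CPM in 3g wt male 17 and 3836 CPM in 16p11.2 del/+ male 4. For 5 cortical excitatory neuron markers it was 83.3 to 683 CPM in the 3g line, 743 to 1294 CPM in the 16p11.2 line, and 874 and 862 CPM in those 2 libraries. For 5 choroid plexus markers the ranges were 16.9 to 41.6 CPM and 8.36 to 110 CPM. None of these markers was at 0 in all libraries of a line, and their part in the levels of Lars2 and the genes grouped with it was not tested. In bulk tissue, fewer cells of a type and less RNA per cell cannot be told apart.

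The ratios between members differed by line. For every 100 counts of Lars2, the libraries of the 3g line other than wt male 17 held 6.42 to 10.7 counts of Mir6236 and those of the 16p11.2 line other than del/+ male 4 held 21.3 to 25.5. Gm15564 kept nearly the same ratio, 3.09 to 4.25 counts in the 3g line and 3.63 to 4.38 in the 16p11.2 line, and Gm26917 went the other way, with 1.66 to 3.84 counts in the 3g line and 0.457 to 1.02 in the 16p11.2 line. In 3g wt male 17 the ratios were 18.04, 4.80 and 1.49 counts of Mir6236, Gm15564 and Gm26917, and in 16p11.2 del/+ male 4 they were 9.39, 2.31 and 5.65. For Mir6236 each of the pair was nearer to the line it lay with than to its own. For Gm15564 the ratios of both lay outside the ranges of both lines. The Gm26917 ratio of 3g wt male 17 lay between the ranges of the lines, and that of 16p11.2 del/+ male 4 was above all 15 values of the 3g line.

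Within each line the members also rose and fell together. Over the 15 libraries of the 3g line without wt male 17, the Pearson correlation of log2(CPM + 1) with Lars2 was 0.89 for Mir6236, 0.91 for Gm15564 and 0.83 for Gm26917, and Spearman's rho was 0.84, 0.89 and 0.83. Leaving out the 2 libraries farthest from the Lars2 median gave 0.80, 0.85 and 0.65. Over the 15 libraries of the 16p11.2 line without del/+ male 4 the Pearson values were 0.99, 0.99 and 0.91, the rho values 0.95, 0.94 and 0.77, and those without the 2 farthest libraries 0.96, 0.93 and 0.83. Without del/+ female 1 as well, the Pearson values over 14 libraries were again 0.99, 0.99 and 0.91. These points share libraries and their totals, and the members were chosen on this relation, so it is a description. The correlation of Lars2 with the total count was 0.16 in the 15 libraries of the 3g line and 0.60 in those of the 16p11.2 line, where it was 0.23 without the 2 farthest libraries and 0.60 without del/+ female 1.

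**Figure D2:**
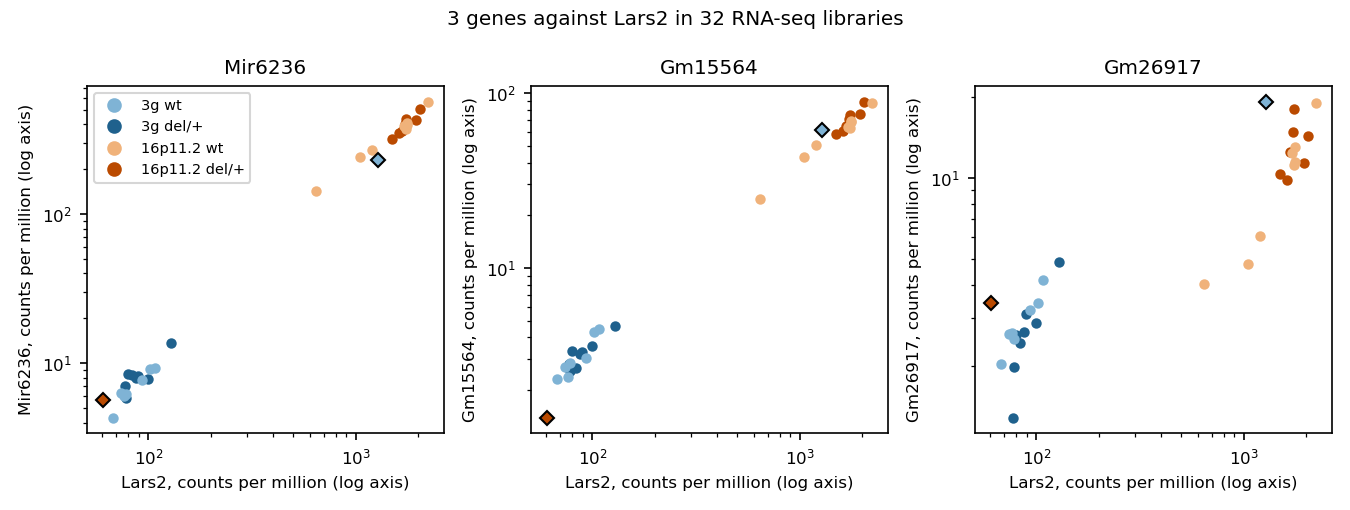
CPM of Mir6236, Gm15564 and Gm26917 against Lars2 in 32 RNA-seq libraries (both axes logarithmic), coloured by line and genotype, with 3g wt male 17 and 16p11.2 del/+ male 4 as diamonds. The diamonds lie with the other line, and within each cluster the points run upward together (Pearson correlation with Lars2 of 0.83 to 0.91 in 15 libraries of the 3g line and 0.91 to 0.99 in 15 of the 16p11.2 line).

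Genes outside the set were compared with Lars2 over 11749 genes with a mean of at least 5 CPM. Over all 32 libraries, which form 2 clusters by line, the closest were Gm24187 (r = 0.998), Gm23935 (0.997), Gm24270 (0.984), Atp5f1 (0.981) and Prdx5 (0.979). Gm24187 stood at 1.77 to 5.56 CPM in 15 libraries of the 3g line and at 26.7 to 95.0 CPM in 15 of the 16p11.2 line, and at 59.8 and 1.33 CPM in 3g wt male 17 and 16p11.2 del/+ male 4. Gm23935 and Gm24270 had the same pattern, whereas Atp5f1, a subunit gene of the mitochondrial ATP synthase, moved only from between 162 and 179 CPM to between 242 and 288 CPM. Within the 3g line the closest were Gm24187, Gm24270, Gm23935, Tmem256 and Eif3h (0.990 to 0.965 over 16 libraries), and within the 16p11.2 line Gm24187, Gm23935, Gm24270, Dynll2 and Atp5f1 (0.997 to 0.948). Without the library that lay with the other line, Gm23935, Gm24187 and Gm24270 stayed among the first 5 in both lines (0.953, 0.911 and 0.866 in the 3g line, 0.975, 0.973 and 0.909 in the 16p11.2 line, where without del/+ female 1 as well they were 0.977, 0.973 and 0.918), and Tmem256, Eif3h, Dynll2 and Atp5f1 did not. CT010467.1, named after its values were seen, then ranked 3 in the 3g line (0.879) and 4 in the 16p11.2 line (0.859). It stood at 91.7 to 252 CPM in the 3g line, at 161 to 397 CPM in the 16p11.2 line, above both ranges in 3g wt male 17 and at 71.6 CPM in 16p11.2 del/+ male 4.

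Residual ribosomal RNA was read from 191 other genes, of which mt-Rnr1 and mt-Rnr2, the small and large ribosomal RNA of the mitochondrial ribosome, alone reached a mean of 1 CPM. In the genes of this list, leftover ribosomal RNA of the cytosolic ribosome was thus hardly counted. The relation of the members to it could not be examined there. The list was drawn from gene names and RefSeq gene types, so ribosomal RNA genes annotated otherwise are not in it. Whether CT010467.1, whose level ran with Lars2 within both lines, is such a gene was not examined. The sum of mt-Rnr1 and mt-Rnr2 was 4245 to 6132 CPM in 15 libraries of the 3g line and 6106 to 10839 CPM in 15 of the 16p11.2 line, 8816 CPM in 3g wt male 17 and 6304 CPM in 16p11.2 del/+ male 4. The sum thus differed between lines by a far smaller factor than Lars2, with ranges that met. Within the lines its relation to Lars2 was weak or changed sign with the libraries used: the Pearson correlation was -0.22 and the rho -0.20 in 15 libraries of the 3g line, and -0.11 and 0.09 in 15 of the 16p11.2 line. Without the 2 libraries farthest from the Lars2 median these Pearson values became -0.23 and 0.37, and the 16p11.2 value without del/+ female 1 was -0.097. Over all 16 libraries of the 3g line r was 0.77, which rested on wt male 17, since rho was 0.0088 and r without the 2 farthest libraries -0.29. Over all 16 of the 16p11.2 line r was 0.34, rho 0.23 and r without the 2 farthest 0.030.

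The 189 nuclear genes of that list, mostly copies annotated as 5S ribosomal RNA, had counts in 64 and went the opposite way between lines. Their sum was 1.30 to 2.13 CPM in 15 libraries of the 3g line and 0.188 to 0.957 CPM in 15 of the 16p11.2 line, 0.865 CPM in 3g wt male 17 and 1.60 CPM in 16p11.2 del/+ male 4. These sums rest on few counts per library, and no relation to Lars2 inside a line is read from them (Pearson correlation of -0.46 in 15 libraries of the 3g line, 0.51 in 15 of the 16p11.2 line, with or without del/+ female 1). Rn7sk, the 7SK small nuclear RNA that holds back transcription elongation, stood higher in the 16p11.2 line, as Lars2 did. It stood at 0.178 to 1.76 CPM in 15 libraries of the 3g line and at 1.77 to 10.7 CPM in 15 of the 16p11.2 line, at 11.3 CPM in 3g wt male 17 and at 0.267 CPM in 16p11.2 del/+ male 4. Its correlation with Lars2 was 0.80 (rho 0.62, and 0.61 without the 2 farthest) in 15 libraries of the 3g line and 0.91 (rho 0.95, and 0.92) in 15 of the 16p11.2 line, where it was 0.91 without del/+ female 1. In the 3g line Rn7sk, with a median of 0.525 CPM, also rested on few counts per library. No relation inside that line is read from it. Between wt females mt-Rnr1, mt-Rnr2 and Rn7sk stood higher in the 16p11.2 line by 0.79 (SE 0.12), 0.78 (SE 0.13) and 2.84 (SE 0.61) on the log2 scale, in the contrast that chose the members. In the female comparisons of del/+ with wt none of them was called, with an edgeR adjusted p of 0.637 or more: the log2 difference of mt-Rnr1 was 0.016 (SE 0.064) in 3g and 0.11 (SE 0.19) in 16p11.2 females, and that of Rn7sk -0.73 (SE 0.55) and 0.61 (SE 0.41). Without del/+ female 1 the 16p11.2 values were 0.22 and 0.71, with an edgeR adjusted p of 0.826 or more. The 13 mitochondrial messenger RNAs summed to 48651 to 58045 CPM in 15 libraries of the 3g line and 44420 to 66448 CPM in 15 of the 16p11.2 line, ranges that overlapped.

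**Figure D3:**
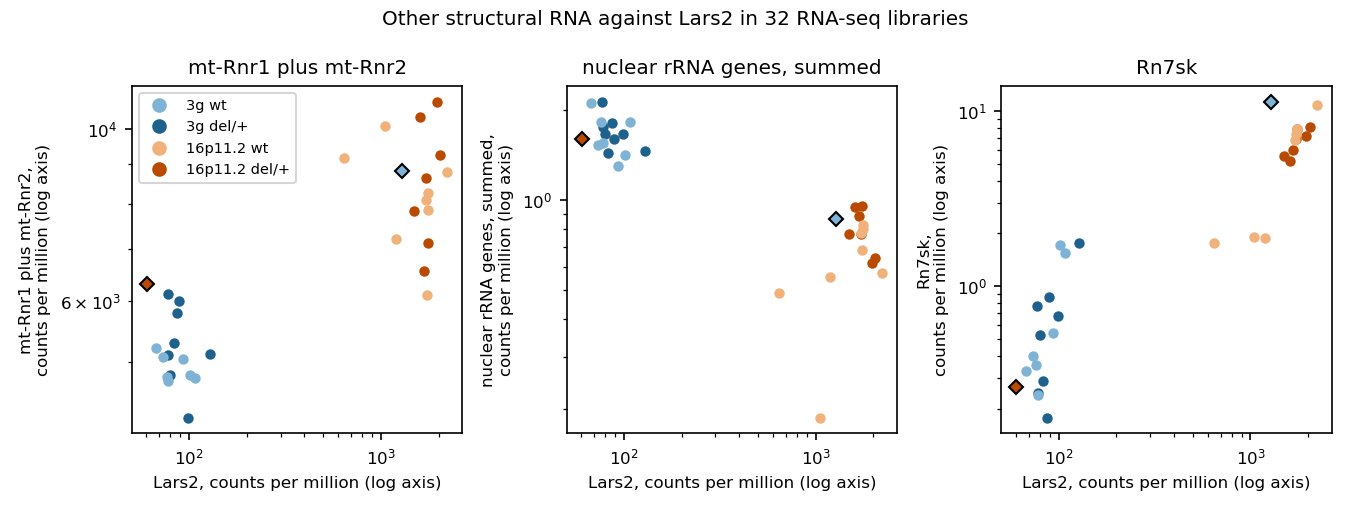
Summed CPM of mt-Rnr1 and mt-Rnr2, summed CPM of the nuclear ribosomal RNA genes, and Rn7sk, each against Lars2 in 32 RNA-seq libraries (both axes logarithmic); colours give line and genotype, and diamonds are 3g wt male 17 and 16p11.2 del/+ male 4. The mitochondrial sum lies at 4245 to 6132 CPM in the other 15 libraries of the 3g line and 6106 to 10839 CPM in those of the 16p11.2 line. The nuclear sum is lower in the 16p11.2 line (0.188 to 0.957 against 1.30 to 2.13 CPM). Rn7sk is higher there (1.77 to 10.7 against 0.178 to 1.76 CPM, the latter from few counts).

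The next question was whether the members differ between del/+ and wt mice. Their difference in females was not among the readouts that chose the members. The wt females also served the contrast between lines, and all female libraries the shares and correlations. The female tests below, the line by genotype one included, are therefore not fully apart from that choice. In 3g females none of the 4 members with counts was called by edgeR's quasi-likelihood test at a Benjamini-Hochberg adjusted p under 0.05 over 19024 genes, where 0.00526% of genes were called (1 gene). That share rests on single libraries and on the filter: 175 genes were called without wt female 39, 18 without del/+ female 37 and 158 with no filter on low counts, and DESeq2 called 117. At an unadjusted p under 0.05 the number of members was 0 as well, against 11% of all genes, and DESeq2 called 0 of them. Lars2 averaged 85.0 ± 9.84 CPM (SD, n = 4) in del/+ and 86.1 ± 13.4 CPM (n = 4) in wt females, a log2 difference of -0.0013 (SE 0.10). The edgeR adjusted p was 0.999. The log2 difference was 0.080 (SE 0.15) for Mir6236, -0.00050 (SE 0.18) for Gm15564 and -0.25 (SE 0.14) for Gm26917, each with overlapping groups.

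In 16p11.2 females 0 of 4 members were called by edgeR, where 0.144% of 18067 genes were called (26 genes), and DESeq2 called 0. At an unadjusted p under 0.05 the number was 3, Mir6236, Gm15564 and Gm26917, against 4.47% of all genes; since the members move together within a line, they do not count as separate observations. Lars2 averaged 1854 ± 169 CPM (SD, n = 4) in del/+ and 1333 ± 528 CPM (n = 4) in wt females, a log2 difference of 0.49 (SE 0.25) with an edgeR adjusted p of 0.998. The log2 difference was 0.56 (SE 0.25) for Mir6236 and 0.57 (SE 0.24) for Gm15564. For Gm26917, at 12.4, 11.3, 14.3 and 17.9 CPM in del/+ and 11.4, 4.02, 6.08 and 11.15 CPM in wt libraries 1 to 4, it was 0.76 (SE 0.27). The groups overlapped for all 4 genes. The lowest wt library, number 2, carried part of each difference: without it the log2 difference was 0.27 for Lars2, 0.34 for Mir6236, 0.34 for Gm15564 and 0.56 for Gm26917. Without del/+ female 1, the library with Ddx3y counts, it was 0.55, 0.65, 0.65 and 0.83, and the number called stayed at 0. The oligodendrocyte marker sum was 6135 to 9747 CPM in del/+ and 6345 to 8792 CPM in wt females of this line, and the cortical marker sum 743 to 1294 and 763 to 1197 CPM.

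Tested as a line by genotype interaction over the 16 female libraries, no member differed between the lines in its del/+ to wt difference by edgeR's adjusted p, where 25 of 19546 genes were called. The largest of these differences was that of Gm26917, 1.02 on the log2 scale (SE 0.36), with an edgeR adjusted p of 0.637. For Lars2 it was 0.49 (SE 0.30), with an adjusted p of 0.792. Without 16p11.2 del/+ female 1 the values were 1.08 for Gm26917 and 0.56 for Lars2, with edgeR adjusted p of 0.436 and 0.594, and no member was called.

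The male comparisons are among the readouts that chose the members and are described without a test. In 3g males, where edgeR called 0% of 19081 genes and DESeq2 1 gene (at an unadjusted p under 0.05, 274 genes), Lars2 averaged 95.2 ± 22.6 CPM (SD, n = 4) in del/+ and 384 ± 599 CPM (n = 4) in wt. The log2 difference was -2.11 (SE 0.91) for Lars2, -2.84 (SE 1.21) for Mir6236, -2.41 (SE 1.03) for Gm15564 and -1.23 (SE 0.71) for Gm26917. Without wt male 17 these became 0.19, 0.52, 0.15 and 0.13, all of the opposite sign, so a single library carried the lower mean of del/+ males. In 16p11.2 males, where 0.106% of 17957 genes were called, the log2 difference was -0.47 (SE 0.69) for Lars2, -0.58 (SE 0.80) for Mir6236, -0.46 (SE 0.72) for Gm15564 and -0.37 (SE 0.44) for Gm26917. Without del/+ male 4 the values for Lars2, Mir6236 and Gm15564 shrank to -0.075, -0.17 and -0.055. For Gm26917 the value nearest 0 with 1 library left out, -0.075, came without wt male 1 instead. In both lines, then, the lower mean of Lars2, Mir6236 and Gm15564 in del/+ males came with 1 library per line that lay with the other line across the transcriptome.

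**Figure D4:**
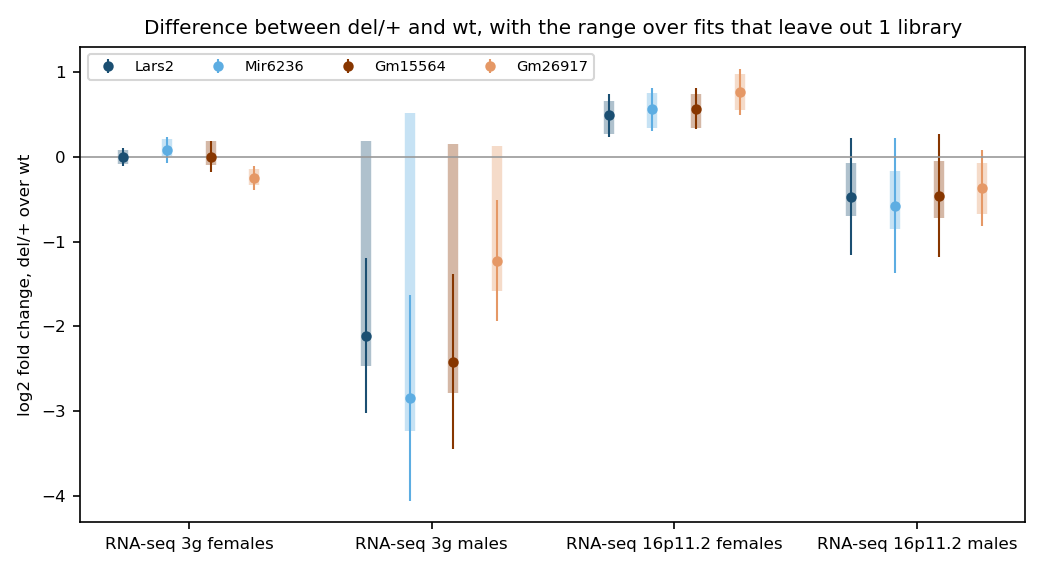
Log2 fold change of del/+ over wt for Lars2, Mir6236, Gm15564 and Gm26917 in 4 RNA-seq comparisons of 4 against 4 libraries; points are edgeR estimates, thin lines their SE, and wide bars the range over fits that leave out 1 library. In 3g males the bars span 0, from -2.46 to 0.19 for Lars2, and in 3g females the points lie near 0.

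The other enzymes of mitochondrial protein synthesis gave a reference for Lars2. The list held 21 other genes: mitochondrial aminoacyl-tRNA synthetase genes and the tRNA-Gln amidotransferase genes Gatb, Gatc and Qrsl1, together called synthetases here. All 21 were tested, and edgeR called 0 of them in 3g females and 0 in 16p11.2 females. Before adjustment 1 and 2 of them fell below 0.05, against 11% and 4.47% of all genes, and in both comparisons DESeq2 called 0. Their median log2 difference was -0.0015 in 3g females, beside -0.0012 over all genes, and -0.040 in 16p11.2 females, beside -0.0012. Without 16p11.2 del/+ female 1 edgeR again called 0, with 1 at an unadjusted p under 0.05 and a median of -0.043 beside -0.0072. Between wt females of the lines 7 of the 21 were called higher and 10 lower in the 16p11.2 line, with a median log2 difference of -0.030 beside -0.0068 over all genes and the 59.9% of genes called there. Kars and Gars, which serve both the cytosol and mitochondria and had the highest CPM of the list, differed there by 0.30 (SE 0.054) and 0.26 (SE 0.059) on the log2 scale. Lars, the cytosolic leucyl-tRNA synthetase, averaged 50.3 ± 1.08 CPM (SD, n = 4) in 3g and 51.8 ± 3.47 CPM (n = 4) in 16p11.2 wt females, a log2 difference of 0.18 (SE 0.045). Over the 21 genes the log2 difference ran from -0.47 for Hars2 to 0.45 for Fars2, beside 4.08 for Lars2.

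The genes beside Lars2 on chromosome 9 did not share its difference either. The nearest 3 tested genes on each side, Cdcp1, Tmem158 and Scp2-ps2 before it and Limd1, Sacm1l and Slc6a20a after it, differed between wt females of the lines by 0.22, 0.44, 0.97, 0.19, -0.20 and -0.84 on the log2 scale. The value of 0.97 belongs to Scp2-ps2, a pseudogene at 0.128 to 0.512 CPM in 15 libraries of the 3g line. In 3g females the 6 differed by -0.18 to 0.35 between del/+ and wt, and in 16p11.2 females by -0.50 to 0.15, with edgeR adjusted p of 0.427 or more and 0.998 or more. Without del/+ female 1 the 16p11.2 values ran from -0.39 to 0.14, with an edgeR adjusted p of 0.890 or more.

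The lysate RNA libraries gave a second look at Lars2 in male mice of the same lines, under other label numbers than the RNA-seq libraries. The submitters' processing notes name Bowtie2 and the mm39 build for them, against HTSeq and mm10 for the RNA-seq libraries. In the 3g line Lars2 stood at 11.6, 9.42 and 13.2 CPM in del/+ animals 1 to 3 and at 9.46, 13.6 and 14.3 CPM in wt animals 1 to 3. In the 16p11.2 line it stood at 9.61, 10.6 and 8.98 CPM in del/+ animals 1 to 3 and at 9.88, 9.47, 9.93 and 9.39 CPM in wt animals 1 to 4. The 13 libraries lay within 8.98 and 14.3 CPM and the lines overlapped. The counts behind these values were 145 to 240 per library.

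Between wt animals of the lines the log2 difference of Lars2 in lysate RNA was -0.24 (SE 0.15, 4 against 3 animals), with an edgeR adjusted p of 0.604, where 0.0139% of 14417 genes were called. It was of the opposite sign to the 4.08 in RNA-seq of wt females, and the difference between the kinds of library, which also differ in sex, animals and counting, was not tested. Within the 3g line del/+ averaged 11.4 ± 1.92 CPM (SD, n = 3) and wt 12.5 ± 2.61 CPM (n = 3), a log2 difference of -0.14 (SE 0.17, edgeR adjusted p = 0.968), where 0.0209% of 14378 genes were called. Within the 16p11.2 line del/+ averaged 9.74 ± 0.843 CPM (n = 3) and wt 9.67 ± 0.278 CPM (n = 4), a log2 difference of 0.049 (SE 0.13, edgeR adjusted p = 0.990), where 0.133% of 14330 genes were called. Among the 21 other synthetase genes edgeR called 0 in each of these 3 comparisons. At an unadjusted p under 0.05 there were 2, 0 and 1 of them, against 10.8%, 4.92% and 4.41% of all genes. DESeq2 called 0 in each, but between wt animals of the lines it gave no adjusted p for 16 of the 21.

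Ribosome footprints, the fragments of RNA covered by ribosomes, report which transcripts are being translated. Lars2 footprints stood at 51.1, 59.0 and 54.7 CPM in 3g del/+ animals 1 to 3 and at 58.5, 73.3 and 358 CPM in 3g wt animals 1 to 3. In the 16p11.2 line they stood at 41.9, 30.6 and 49.2 CPM in del/+ animals 1 to 3 and at 44.8, 90.8, 41.2 and 34.3 CPM in wt animals 1 to 4. The 3g wt animal 3 stood apart, with 133 counts of Lars2, while the other 12 animals had 11 to 42 counts. In the lysate RNA of the same animal Lars2 was at 14.3 CPM, the highest of 13 but close to the next. The footprint to lysate RNA ratio of Lars2 was 24.97 in 3g wt animal 3 and 2.88 to 9.59 in the other 12 (median 4.47), whereas that of the 21 other synthetases, summed, was 1.02 to 1.71 in all 13. In 3g wt animal 3, 26 genes in all, Lars2 included, stood at least 3 times above the highest other footprint library of the line after 10 CPM were added to each value.

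In 3g footprints the log2 difference of Lars2 between del/+ and wt was -1.52 (SE 0.48) with an edgeR adjusted p of 0.414, so it was not called, where 0.0132% of 7553 genes were called; without 3g wt animal 3 it was -0.24, and without wt animal 1 it was -1.92 with an adjusted p of 0.0077. With no filter on low counts it was -1.45 with an edgeR adjusted p of 0.0010, past the threshold. In 16p11.2 footprints it was -0.35 (SE 0.35) with an edgeR adjusted p of 0.951, where 0.117% of 5964 genes were called, and 0.051 without wt animal 2. Between wt animals of the lines it was -1.18 (SE 0.47) with an edgeR adjusted p of 0.372, where 0.241% of 6633 genes were called, 0.091 without 3g wt animal 3, and -1.17 with an adjusted p of 0.0057 with no filter. With the filter none of the 3 footprint comparisons of Lars2 was called by edgeR. Before adjustment 2 of them, in the 3g line and between wt animals, fell below 0.05, as 7.97% and 10.5% of all genes did. DESeq2 gave no adjusted p for Lars2 in any of the 3. Lars2 had 11 to 42 counts in 12 of 13 libraries, and with the filter even -1.52 with an SE of 0.48 was not called. Smaller differences, also ones larger than these errors, could therefore go undetected at this depth. The line by genotype interaction of Lars2 was not called in lysate RNA (0.19, SE 0.21, edgeR adjusted p = 0.922) or in footprints (1.16, SE 0.66, adjusted p = 0.620).

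**Figure D5:**
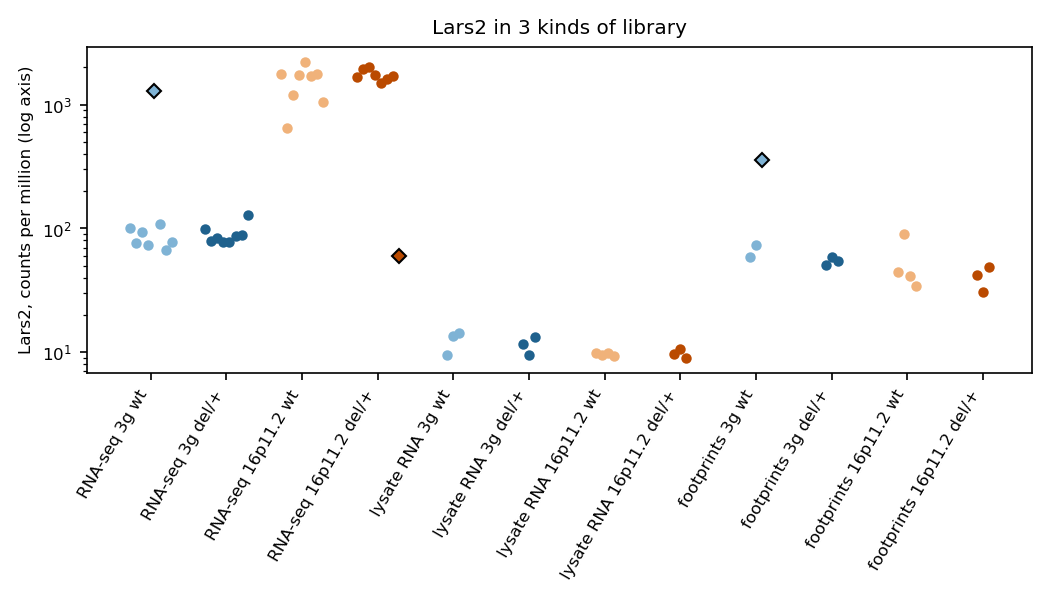
Lars2 in CPM (log axis) in 32 RNA-seq, 13 lysate RNA and 13 footprint libraries by line and genotype, sexes together; points are libraries, and diamonds are 3g wt male 17, 16p11.2 del/+ male 4 and, in footprints, 3g wt animal 3. The lines are far apart in RNA-seq (67.3 to 128 against 644 to 2222 CPM without the diamonds) and overlap in lysate RNA (9.42 to 14.3 against 8.98 to 10.6 CPM).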

How the data were processed

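The authors deposited raw counts per gene, with no normalization: RNA-seq counts for 54532 genes and lysate RNA and footprint counts for 18411 genes. The paper names the bcbio-nextgen pipeline and a stranded kit with ribosomal RNA depletion for RNA-seq, and the submitters' processing notes name HTSeq and mm10 for RNA-seq and Bowtie2 and mm39 for the other libraries. The labels enter polyA RNA as the molecule and another extraction text, and read lengths differ between labels and paper. Table columns were matched to samples through the sample titles. Gene symbols came from a table that matched 54409 of 54532 and 18377 of 18411 IDs, and positions and sequences from RefSeq (GRCm38.p6).

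Counts were divided by library totals for CPM. Tests used edgeR 4.0.16 in R 4.3.3 (filterByExpr, TMM, glmQLFit and glmQLFTest on the 2 groups compared), with Benjamini-Hochberg adjustment over all genes tested and a threshold of 0.05. DESeq2 1.42.0 was an alternative. The scripts were tested on simulated data. The SE was the log2 difference divided by the root of the F value. Correlations used log2(CPM + 1).

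The members and gene lists were chosen with earlier results of these data known. The genes named were all members, other ribosomal RNA genes with a mean of at least 1 CPM, the 2 other mitochondrial synthetases with the highest CPM, 3 neighbours of Lars2 on each side, and the 5 genes of at least 5 CPM most correlated with Lars2 over both lines and in each line. Replicate libraries of 1 group differed by more than counting noise (chi-square per degree of freedom of 2.21 or more for every pair). In the 16p11.2 line the 4 replicate numbers shared by del/+ and wt did not pair the libraries: the deviations of same-numbered libraries correlated by -0.12 to 0.14 in females and -0.30 to 0.14 in males. One marker of the oligodendrocyte list is not reported here and was left out of its sums.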

Additional observations from a re-analysis of the deposited data

Results flagged for a closer look

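Within groups of 4 libraries, 34 combinations of gene and group were examined for a highest or lowest value far from the others by Dixon's criterion, which chance meets in about 1 of 20. It was met 6 times, 5 of them in the 2 libraries that lie with the other line. The RNA-seq shares are among the readouts that chose the members, and the members move together. The 6 are therefore not separate observations, and their number is not to be set against the chance rate. In 3g wt males, library 17 stood apart with 1282 CPM of Lars2, 231 CPM of Mir6236, 61.5 CPM of Gm15564 and 19.1 CPM of Gm26917, the highest values of the group. In 16p11.2 del/+ males, library 4 stood apart with 60.3 CPM of Lars2, the lowest of the group. In 3g del/+ males, library 33 had the highest Mir6236 level, 13.7 CPM. The footprint library of 3g wt animal 3 belongs to a group of 3, to which the criterion was not applied.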

How the results depend on the processing

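Alternatives were RLE size factors, DESeq2, no filter on low counts, library totals without the members and the residual ribosomal RNA genes, all 16 libraries of a line in 1 fit (females), a replicate block (16p11.2), and each library left out. Over 168 such values of the tested results, 154 kept their direction and side of the threshold, 3 passed the threshold and 11 changed direction; 4 DESeq2 values of Lars2 with no adjusted p (the 3 footprint comparisons and lysate RNA between wt animals) were left out. The number of members called stayed at 0 in both female comparisons. The values past the threshold were those of Lars2 in footprints with no filter, -1.45 in the 3g line and -1.17 between wt animals, and the 3g one without wt animal 1.

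Leaving out 1 library gave log2 differences of Lars2 from -0.082 to 0.083 in 3g females, of Gm15564 there from -0.10 to 0.19 (0.00039 with RLE), and of Lars2 in footprints from -1.92 to -0.24 in the 3g line, -0.55 to 0.051 in the 16p11.2 line and -1.59 to 0.091 between wt animals. The correlation of Lars2 with mitochondrial ribosomal RNA turned from positive to -0.29 and -0.22 in the 3g line without the 2 farthest libraries or without wt male 17, and to -0.11 in the 16p11.2 line without del/+ male 4. The shares of counts of the members moved by less than their SD with another denominator.

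The replicate numbers of the 16p11.2 line did not pair the libraries. With the replicate block 0 members were called in 16p11.2 females, and the log2 difference of Lars2 was 0.57 there and -1.03 in 16p11.2 males. Lysate and footprint animals share no label numbers between groups.

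Counts of genes called moved with no filter (1 to 158 in 3g females, 26 to 45 in 16p11.2 females, 1 to 127, 7 to 43 and 16 to 175 in the footprint comparisons, 3 to 9 and 2 to 5 in lysate RNA of the 3g line and between wt animals) and with DESeq2 (1 to 117, 26 to 49, 1 to 11, 7 to 15, 16 to 63, 3 to 13 and 2 to 162 in the same order, and 19 to 31 in 16p11.2 lysate RNA and 19 to 32 in 16p11.2 males). They also moved when 1 library was left out: to between 1 and 175 in 3g females (highest without wt female 39, and 18 without del/+ female 37), 0 to 24 in 3g footprints (highest without wt animal 1, and 21 without wt animal 2), 2 to 13 in 16p11.2 footprints, 1 to 72 in footprints of wt animals (highest without 3g wt animal 3, lowest without 16p11.2 wt animal 2), 3 to 12 in 3g lysate RNA, 10 to 19 in 16p11.2 lysate RNA and 0 to 4 in lysate RNA of wt animals. The cause was not tested. Leaving out 16p11.2 del/+ female 1 from the line by genotype comparison, the synthetases, the neighbours, the ribosomal RNA genes and the correlations was chosen after seeing the data.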
